A study of Homo sapiens with 4 samples.

Results

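Histone genes were examined in the FOXK2 ChIP-seq of OVCAR5 cells as every called peak that the deposited lists assign to a gene whose symbol begins with HIST1H to HIST4H, H1F, H2AF or H3F3. This rule found 17 of the 12471 peaks of replicate 1 and 37 of the 27281 peaks of replicate 2. The peaks belonged to 36 histone genes, of which 26 were replication-dependent genes (HIST symbols) and 10 were variant genes (H1F, H2AF and H3F3 symbols), and 13 genes were named in both lists. FOXK2 is a forkhead transcription factor, and ChIP-seq sequences the DNA that an antibody against it pulls down from crosslinked chromatin. OVCAR5 is a cell line labelled as high grade serous ovarian cancer from ascites. Both biological replicates were OVCAR5 cells at passages 4 to 6 in RPMI medium with serum, with no drug or genetic change named in their labels. With this single condition, the values below describe where FOXK2 was bound and not how binding changed, and the matching input libraries were not analysed here.

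Histones are the proteins around which DNA is wrapped. Replication-dependent histone genes mostly lie in clusters and lack introns. They are transcribed in S phase with the coactivator NPAT, and typically give mRNAs that end in a stem-loop bound by SLBP instead of a poly(A) tail. Variant histones such as H3.3, H2A.Z and H1.10 are encoded by dispersed genes, mostly with introns and polyadenylated mRNAs, and are made outside S phase as well.

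The DNA at the centre of 5 sites is shown because these sites carry the results: the highest-ranked histone gene peak (H1FX), the promoter peak of the other variant gene found in both replicates (H3F3A), and the 3 sites found in both replicates that hold the forkhead heptamer TGTTTAC (HIST1H4H, HIST1H2AC and HIST1H2AB). Each run is 121 bp of the plus strand of hg38 centred on the replicate 1 peak, and capitals mark the heptamer on either strand, so that GTAAACA is a copy on the minus strand. The H1FX window is chr3:129316278-129316398 and that of H3F3A is chr1:226062451-226062571. The windows of the replication-dependent genes are chr6:26311823-26311943 for HIST1H4H, chr6:26126173-26126293 for HIST1H2AC and chr6:26032870-26032990 for HIST1H2AB.
H1FX: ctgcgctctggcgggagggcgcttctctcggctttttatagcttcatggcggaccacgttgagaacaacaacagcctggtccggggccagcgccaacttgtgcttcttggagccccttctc
H3F3A: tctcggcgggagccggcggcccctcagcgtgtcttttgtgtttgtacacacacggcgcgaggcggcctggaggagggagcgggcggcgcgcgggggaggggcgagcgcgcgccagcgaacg
HIST1H4H: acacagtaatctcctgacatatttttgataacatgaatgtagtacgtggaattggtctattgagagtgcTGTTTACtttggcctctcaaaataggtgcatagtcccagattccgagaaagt
HIST1H2AC: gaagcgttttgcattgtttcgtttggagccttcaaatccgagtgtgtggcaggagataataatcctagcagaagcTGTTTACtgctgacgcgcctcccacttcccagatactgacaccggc
HIST1H2AB: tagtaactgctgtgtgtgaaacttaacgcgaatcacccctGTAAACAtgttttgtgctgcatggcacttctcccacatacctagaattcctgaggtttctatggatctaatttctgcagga

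H1FX, which encodes the linker histone H1.10 (current symbol H1-10), had the highest-ranked peak of any histone gene in both replicates. Its promoter peak scored 56.8 in replicate 1, rank 10 of the list, and 115.8 in replicate 2, rank 8. Scores are HOMER's peak scores, which are scaled to each library, so ranks and percentiles within a list (100 at the top) were used to compare peaks: H1FX stood at the percentile of 99.92 in replicate 1 and 99.97 in replicate 2. The peaks lay at chr3:129316233-129316443 and chr3:129316232-129316488, at -61 and -83 bp from the TSS. H1-10 shares 16 bp at its 5′ end with the divergent long noncoding RNA gene H1-10-AS1, so the peak is at the start of both. The focus ratio, the fraction of tags on the expected side of the peak centre, was 0.944 in replicate 1 and 0.939 in replicate 2, against list medians of 0.758 and 0.755. In the sequence above no capitals appear: neither H1FX peak held TGTTTAC, nor any heptamer 1 base away from it, within 100 bp of its centre. Of the 20 highest-scoring peaks of each list, 15 held TGTTTAC in replicate 1 and 15 in replicate 2, and the promoter peaks among them without it numbered 4 and 5.

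H3F3A, one of the genes for the replacement histone H3.3 (current symbol H3-3A), was the other variant gene with a peak in both replicates. Its promoter peak scored 6.23 (rank 5476, percentile 54.9) in replicate 1 and 18 (rank 2096, percentile 92.2) in replicate 2, the widest gap in percentile among the histone gene peaks shared by the replicates. The peaks lay at chr1:226062406-226062616 and chr1:226062363-226062619, at -196 and -216 bp from the TSS in the lists. The lists take their promoter label for this peak from a transcript of the pseudogene H3P6 on chromosome 2, while the nearest start in GENCODE belongs to H3-3A itself, at 203 and 223 bp. In RefSeq, the noncoding gene H3-3A-DT reaches to position 226062495, between the centres of the peaks. The window was rich in GC, at 80.6% in replicate 1 and 78.6% in replicate 2. It held no TGTTTAC but the word TGTGTAC on the minus strand (T4G, with positions numbered from the 5′ end of the heptamer, starting at 1), which starts at position 226062494. Heptamers 1 base away from TGTTTAC are common: 57.1% of all replicate 1 peaks and 58.2% of all replicate 2 peaks held at least 1.

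The other 8 variant genes were named in replicate 2 only. H2AFV (H2AZ2, an H2A.Z gene) had a promoter peak at -67 bp with a score of 13.8 (rank 3968, percentile 85.3). H3F3B (H3-3B), the other H3.3 gene, had a promoter peak at 76 bp with a score of 9.37 (rank 8868, percentile 67.1). The remaining peaks were at or below the percentile of 54.4. H2AFX (H2AX, the histone phosphorylated at DNA breaks) was marked within its single exon at 139 bp (rank 13065), and H2AFZ (H2AZ1, the other H2A.Z gene) in exon 3 at 1024 bp (rank 13834). Peaks in introns were assigned to the macroH2A genes H2AFY at 11997 bp (rank 12252) and H2AFY2 at 38489 bp (rank 25156). The nearest GENCODE starts were those of the same genes, 1799 bp and 461 bp from the centres. H1FOO, the oocyte linker histone gene, was named for a peak in an intron of PLXND1 at 10606 bp (rank 25743), and H3F3C for 2 distant intergenic peaks (ranks 19113 and 20908). For H3F3B, replicate 1 had a peak named for the neighbouring gene UNK, 7 bp from the start of another H3-3B transcript in GENCODE (score 4.53, rank 9428, percentile 21.9), which did not overlap the replicate 2 peak. No peak was assigned to the remaining 6 of 16 coding variant genes in either list.

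**Figure D1:**
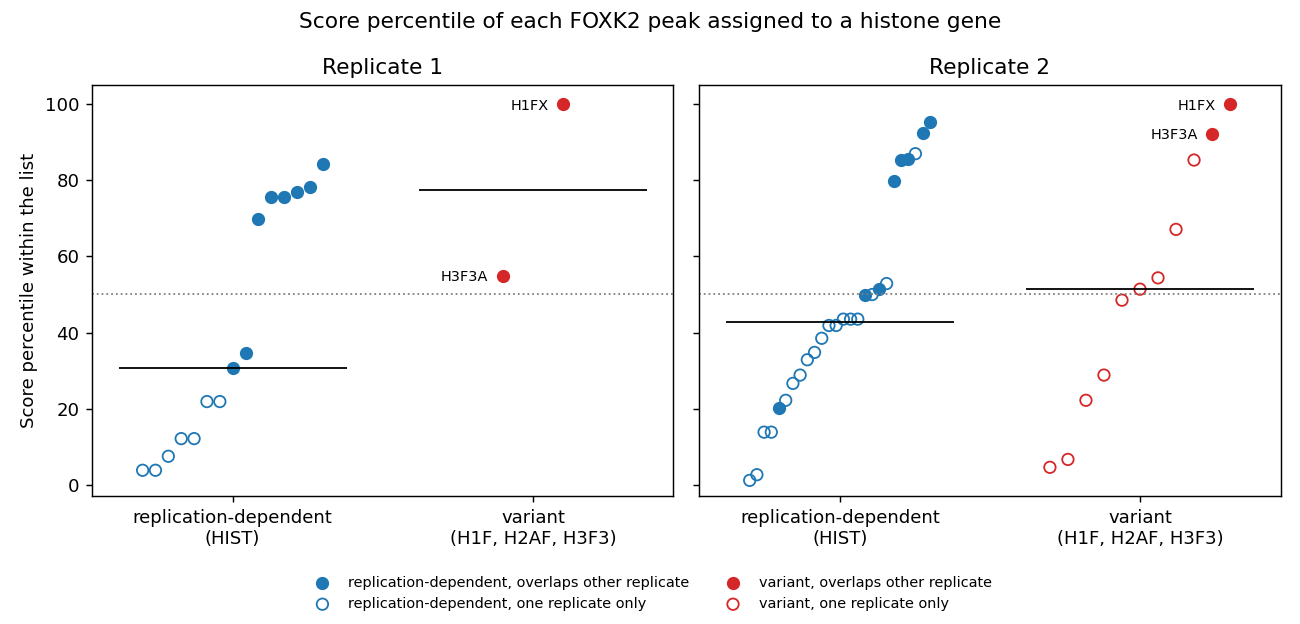
Score percentile within its list (vertical axis) of each of the 17 histone gene peaks of replicate 1 and 37 of replicate 2, by class; filled points overlap a peak of the other replicate, open points do not, black bars are class medians and the dotted line marks 50. H1FX tops both panels, and in replicate 1 every open point lies at or below 21.9.

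Of the replication-dependent genes, HIST1H4H (H4C8, encoding H4) had the strongest peak, but far from the gene. It scored 9.81 (rank 1915, percentile 84.2) in replicate 1 at -26384 bp and 21.3 (rank 1309, percentile 95.2) in replicate 2 at -26400 bp, with TGTTTAC in both. A further intergenic HIST1H4H peak without the heptamer scored 8.3 (rank 2960) at -10952 bp and 11.9 (rank 5462) at -10935 bp. A peak found in replicate 2 only was the nearest to the gene, at -1315 bp, with a score of 6.69 (rank 15160, percentile 43.5) and TGTTTAC. All 3 sites lay inside the chromosome 6 histone cluster, and the nearest GENCODE start to the first was that of the histone pseudogene H3C9P, 10409 bp away in replicate 1.

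HIST1H2AC (H2AC6, encoding H2A) came next. Its intergenic peak 2088 bp from the TSS scored 8.68 (rank 2659, percentile 78.1) in replicate 1, and the replicate 2 peak at 2091 bp scored 18.1 (rank 2050, percentile 92.4). The centres were 3 bp apart, and both windows held the heptamer shown above. HIST1H2AB (H2AC4) was weaker, with a peak at 638 bp that scored 5.09 (rank 7875, percentile 34.8) in replicate 1 and at 632 bp that scored 7.29 (rank 13458, percentile 49.98) in replicate 2, also with TGTTTAC. That peak lay between the 3′ end of H2AC4 and the start of H3C2, which are transcribed in the same direction, and its promoter label comes from the transcript of H3C2 (HIST1H3B), whose GENCODE start was 831 bp and 837 bp from the centres.

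Of the 3 coding genes of the small cluster at chr1:228424845-228458558, HIST3H2A (H2AC25) and HIST3H2BB (H2BC26) had a peak without TGTTTAC in both replicates. The HIST3H2A peak scored 8.3 (rank 2960, percentile 75.6) at 276 bp in replicate 1 and 13.8 (rank 3968, percentile 85.3) at 252 bp in replicate 2. Its centres fell inside the 510-bp H2AC25 gene and within 1000 bp of the start of H2BC26, so the peak cannot be given to one of these head-to-head genes alone. The HIST3H2BB peak lay beyond the RefSeq end of H2BC26 but 197 and 245 bp from another of its GENCODE starts, at 1243 bp from the listed TSS with a score of 8.49 (rank 2809, percentile 76.9) in replicate 1 and at 1291 bp with a score of 14 (rank 3862, percentile 85.7) in replicate 2.

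The remaining shared sites were HIST1H1A (H1-1, a linker histone) and HIST1H2AH (H2AC12). The HIST1H1A peak was 25127 bp from the TSS in a CpG island, at scores of 7.55 (rank 3663, percentile 69.8) and 7.44 (rank 13065, percentile 51.4), and its centre was 7 and 4 bp from the GENCODE start of the long noncoding RNA gene LINC02980. The HIST1H2AH peak lay within the gene and was the weakest of the shared sites in both lists, at scores of 4.9 (rank 8397, percentile 30.8) and 4.91 (rank 21526, percentile 20.1). Its promoter label comes from the adjacent divergent gene H2BC12 (HIST1H2BK). Because the replicate 2 list is longer, a shared peak can gain percentile without gaining rank. The rank was better in replicate 2 for 4 of the 10 pairs, H1FX, H3F3A, HIST1H2AC and the HIST1H4H site at -26384 bp, while the percentile was higher for 8.

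**Figure D2:**
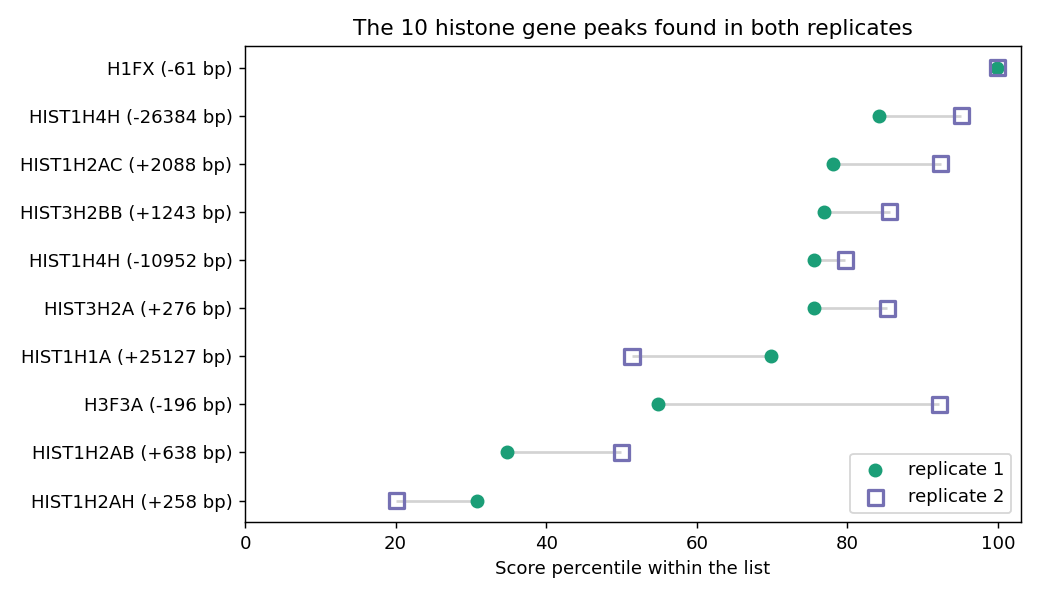
Score percentile within the list (horizontal axis) in replicate 1 (filled circles) and replicate 2 (open squares) of the 10 histone gene sites found in both, named with the distance of the replicate 1 peak from the TSS. H1FX is above 99.9 in both and H3F3A has the longest line (54.9 to 92.2). The lists hold 12471 and 27281 peaks, and in the longer list a shared peak can gain percentile without gaining rank.

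The overlap between replicates was set by these 10 sites. They made up 58.8% of the 17 histone gene peaks of replicate 1 (Wilson 95% interval 36.01% to 78.4%), where 74.9% of all peaks overlapped a replicate 2 peak, and 27.0% of the 37 peaks of replicate 2 (15.4% to 43.0%), where 34.2% of all peaks overlapped a replicate 1 peak. Centres of paired histone gene peaks lay a median of 18.5 bp apart, and those of all pairs 29 bp. The background share lies within both intervals, which cover counting error only, and the peaks of a cluster are not independent. In replicate 1 the 10 overlapped peaks had a median percentile of 75.6 and the 7 others one of 12.2, none above 21.9. In replicate 2 the 10 overlapped peaks had a median of 85.5 and the 27 others one of 38.5. Such a split of all peaks is not given, so these medians cannot be read as particular to histone genes. The median percentile of all histone gene peaks was 34.8 (range 3.87 to 99.92) in replicate 1 and 43.5 (range 1.21 to 99.97) in replicate 2. With the replicate 2 list limited to its 12471 highest-scoring peaks (45.7% of the list), 11 of the 37 histone gene peaks were left, and the median of these, which the score itself selects, was 68.6.

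Other genes were named in both lists for different places. HIST1H4C had a replicate 1 promoter peak at -211 bp (rank 11801) and a replicate 2 peak at its termination site at 961 bp (rank 19113). HIST1H4J showed the opposite order, with a termination site peak in replicate 1 at 563 bp (rank 9428) and a promoter peak in replicate 2 at -176 bp (rank 26801). HIST1H2BE (ranks 9428 and 19709) and HIST1H2BL (ranks 10645 and 15160) had peaks that did not overlap. By the listed TSS these were over 10000 bp away, but the HIST1H2BE peaks were 61 bp and 685 bp from the GENCODE start of a longer H2BC6 transcript. All of these lay at or below the percentile of 43.5, and none counts as a site found in both replicates.

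Of the peaks found in replicate 1 only, HIST1H4I had one at its promoter at -81 bp (rank 11801), HIST2H2BC, a pseudogene, one at 2132 bp (rank 10645), and HIST3H2A a further one at 5833 bp (rank 11262). The HIST2H2BC centre fell inside the RefSeq span of the coding gene H4C15. The strongest replication-dependent peak found in replicate 2 only was that of HIST1H1C (H1-2, a linker histone), past the 3′ end at 1303 bp, with a score of 14.6 (rank 3516, percentile 87.0). HIST1H2BN (rank 12649) and HIST1H2BK (rank 13458) also carried the termination site label in that list, and the HIST1H2BK centre fell inside the RefSeq span of H2BC12. Promoter peaks of replicate 2 alone were those of HIST1H1D at 21 bp (rank 16543), HIST1H4L at -36 bp and HIST1H2BB at -557 bp (both rank 15653), and HIST1H3E at -736 bp (rank 15160). The HIST1H3E centre fell inside its gene H3C6, 220 bp from a GENCODE start. Beside the HIST1H4H peak at -1315 bp, the others, assigned to HIST1H2BJ, HIST1H3D, HIST1H2AA, HIST1H2BD, HIST4H4 and HIST2H2AA4, were at or below the percentile of 34.8. HIST2H2AA4 has a near-identical copy, HIST2H2AA3, and reads of 50 bp from such copies may be placed at either, which makes that assignment uncertain.

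**Figure D3:**
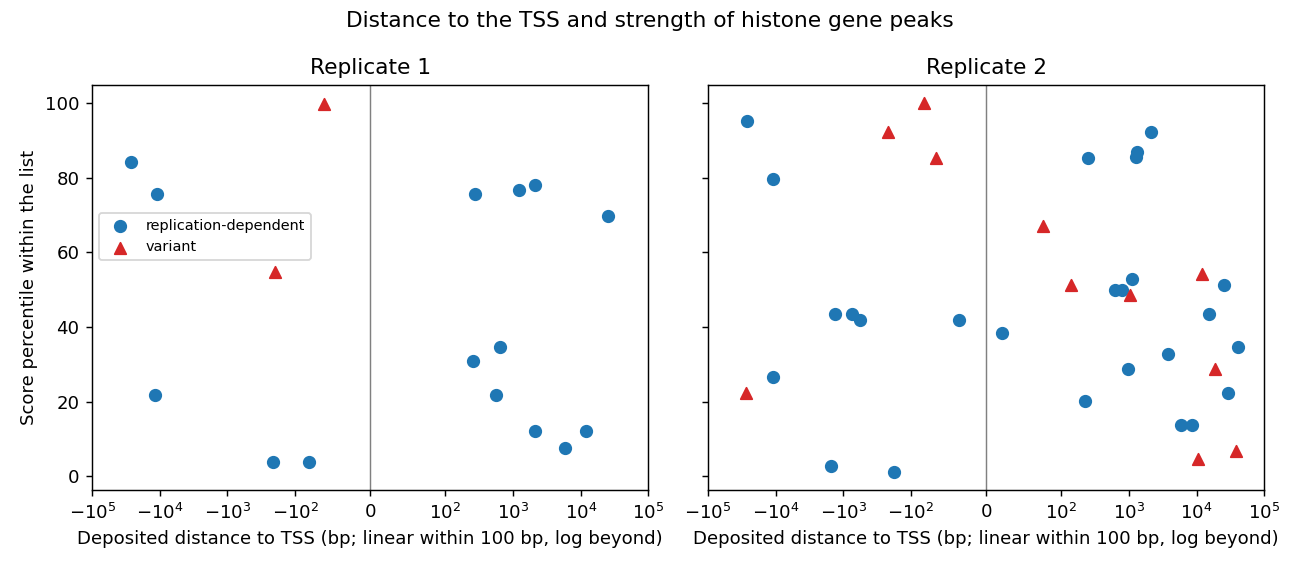
Score percentile within the list against the deposited distance to the TSS in bp (symmetric log axis, linear within 100 bp, negative upstream) for replication-dependent (circles) and variant (triangles) gene peaks. The points above 90 are the variant promoters H1FX and H3F3A and the replication-dependent HIST1H4H and HIST1H2AC sites, which lie outside the promoter class.

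Positions were set beside those of the lists as a whole. The promoter class held 7 of 17 histone gene peaks in replicate 1 (41.2%, with 21.7% of all peaks) and 12 of 37 in replicate 2 (32.4%, with 18.0%), and introns held 0 of 17 (a count that allows a share of up to 17.6%, with 39.0% of all peaks) and 5 of 37 (13.5%, with 40.6%). Peaks in the class at the transcription termination site made up 3 of 17 histone gene peaks in replicate 1 (17.6%, with 1.29% of all peaks) and 5 of 37 in replicate 2 (13.5%, with 1.27%), and all of them were at replication-dependent genes. Among these, the replicate 1 peak of HIST1H2BE lay at -11798 bp from its listed TSS, and its label names a transcript of H2BC5. Peaks more than 10000 bp from the TSS numbered 5 in replicate 1 (29.4%, with 57.1% of all peaks) and 12 in replicate 2 (32.4%, with 62.1%). These shares were not tested. The replicate 2 peak of HIST1H2BD lay in the intron of a transcript of H2BC5, its own gene. The median GC content within 100 bp of the centre was 52.7% and 47.8% for histone gene peaks, and 47.3% and 46.3% for all peaks.

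By histone type, replication-dependent genes with a site found in both replicates were 4 of 17 coding H2A genes, 1 of 18 H2B genes, 1 of 15 H4 genes, 1 of 6 H1 genes and 0 of 15 H3 genes, beside 26.3% of all coding genes. The types were not compared by a test. Only 2 replication-dependent H3 genes, HIST1H3D and HIST1H3E, were named in either list. The HIST1H2AB site, however, lay within 1000 bp of the start of H3C2. In the main cluster of 55 coding genes, which spans 2167828 bp at chr6:25726063-27893891, the lists held 26 peaks in replicate 1 and 56 in replicate 2, of which 11 and 21 were assigned to histone genes. The remaining peaks of the cluster went to 12 and 21 other genes. Their median percentile was 26.7 in replicate 1 and 46.9 in replicate 2, beside 30.8 and 43.5 for the histone gene peaks there. Overlap with the other replicate was seen for 14 of these 15 peaks in replicate 1 and 14 of 35 in replicate 2, beside 6 of 11 and 6 of 21 histone gene peaks, which was not tested. The highest-ranked peak in this cluster belonged to neither class: it was the promoter peak of ABT1, a basal transcription activator gene, at the percentile of 86.2 in replicate 1 and 97.5 in replicate 2. The cluster of 11 coding genes at chr1:149782689-149887965 held 1 peak in each list.

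Replication-dependent and variant genes were compared directly in 8 comparisons with two-sided Fisher's exact tests and Benjamini-Hochberg adjustment over the 8. None passed an adjusted p of 0.05. The smallest unadjusted p was 0.151, and peaks of a gene or a cluster are not independent, so the p-values are too small if anything.

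Promoter peaks were 5 of 15 replication-dependent peaks (33.3%, Wilson 95% interval 15.2% to 58.3%) and 2 of 2 variant peaks in replicate 1, where 21.7% of all peaks are in the promoter class (exact p = 0.154, the smallest this design allows, adjusted p = 0.605). In replicate 2 they were 8 of 26 (30.8%, 16.5% to 49.99%) and 4 of 11 (36.4%, 15.2% to 64.6%), with 18.0% of all peaks (exact p = 1, adjusted p = 1). This replicate 2 difference of -5.59 percentage points widened to -46.7 with peaks at or above the median score (exact p = 0.118, adjusted p = 0.315) and to -63.3 with lists of the same length (exact p = 0.0801, adjusted p = 0.309). Sites in the promoter class of both lists were those assigned to H1FX and H3F3A among variant genes and to HIST3H2A, HIST1H2AB and HIST1H2AH among replication-dependent genes. Of these labels, only that of H1FX names a transcript of the assigned gene: the label of HIST3H2A names H2BC26, that of HIST1H2AB names H3C2, that of HIST1H2AH names H2BC12, and that of H3F3A names H3P6. Overlap with the other replicate was seen for 8 of 15 replication-dependent peaks (53.3%, 30.1% to 75.2%) and 2 of 2 variant peaks in replicate 1, with 74.9% of all peaks (exact p = 0.485, adjusted p = 0.971). In replicate 2 it was seen for 8 of 26 (30.8%) and 2 of 11 (18.2%, 5.14% to 47.7%), with 34.2% of all peaks (exact p = 0.688, adjusted p = 1). The replicate 1 difference of -46.7 percentage points ran from -66.7 with lists of the same length to 0 with peaks at or above the median score. The replicate 2 difference of 12.6 ran from -7.02 within 10000 bp of the TSS to 43.3 with lists of the same length. The median percentile was 30.8 for replication-dependent and 77.4 for variant peaks in replicate 1, and 42.7 and 51.4 in replicate 2.

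Within 100 bp of the centre, TGTTTAC was found in replication-dependent peaks and in no variant peak. It was in 4 of 15 replication-dependent peaks in replicate 1 (26.7%), at HIST1H4H, HIST1H2AC, HIST1H2AB and HIST1H4J, and in 0 of 2 variant peaks, beside 30.5% of all peaks (exact p = 1, adjusted p = 1). In replicate 2 it was in 6 of 26 (23.1%, 11.03% to 42.1%), which included 2 HIST1H4H peaks and those of HIST1H2AC, HIST1H2AB, HIST1H2AA and HIST4H4. Variant peaks of replicate 2 held it in 0 of 11 cases (Wilson upper bound 25.9%; a count of 0 allows up to 27.3% when 3 counts are taken as the limit), beside 28.2% of all peaks (exact p = 0.151, adjusted p = 0.605). The difference between the classes was therefore not detectable with this number of peaks. Over the whole peak, TGTTTAC was also in 1 variant peak, of H3F3C in replicate 2, and the difference there fell from 23.1 to 14.0 percentage points (exact p = 0.649, adjusted p = 1).

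Other motifs were searched in the same windows on both strands. The AP-1 site, TGACTCA or TGAGTCA, was in 0 of 17 histone gene peaks of replicate 1, which allows a share of up to 17.6%, beside 16.4% of all peaks. In replicate 2 it was in 1 of 37 (2.70%, beside 16.6%), at H1FOO. CCAAT, the core of NF-Y sites, was in 4 of 17 (23.5%, beside 25.03%) and 11 of 37 (29.7%, beside 24.4%). The octamer ATTTGCAT, known from H2B promoters, was in no replicate 1 peak (beside 1.203% of all peaks) and in 1 replicate 2 peak, at H3F3B (beside 1.27%).

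The promoters of histone genes themselves were searched as well. In RefSeq windows from 250 bp before to 50 bp after the start (GRCh38.p14), TGTTTAC was in 2 of 66 replication-dependent genes (3.03%), H2AC1 and H2BC1, and in 0 of 14 variant genes, which allows a share of up to 21.4%, beside 3.77% of 15517 coding genes. The same windows held CCAAT in 84.8% of replication-dependent and 85.7% of variant genes, beside 42.4% of all. All replication-dependent H1, H2A, H2B and H3 genes with a window held CCAAT, as did 3 of 13 H4 genes. The octamer was in 26 of the 66 replication-dependent genes (39.4%, beside 2.198% of all), 14 of them among the 18 H2B genes and 11 among the 16 H2A genes. A match is a description of the letters and not a site of binding.

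Counted by gene, 11 of 71 coding replication-dependent genes had a peak in both replicates (15.5%, 8.88% to 25.7%), as did 2 of 16 variant genes (12.5%, 3.50% to 36.02%), beside 29.5% of 19443 coding genes. The difference between the classes was 2.99 percentage points (exact p = 1, adjusted p = 1). It changed sign under 4 of the alternatives, and with replicate 2 alone, where 24 replication-dependent (33.8%) and 10 variant genes (62.5%) had a peak beside 53.3% of coding genes, it was -28.7 percentage points (exact p = 0.0472, adjusted p = 0.378). By the assigned gene, whichever gene's transcript gave the label, a peak in the promoter class of both replicates was found for 3 replication-dependent genes (4.23%, 1.45% to 11.7%) and 2 variant genes (12.5%), beside 9.59% of coding genes, a difference of -8.27 percentage points (exact p = 0.227, adjusted p = 0.605). When a peak within 1000 bp of any GENCODE start of a gene was counted under whatever name, 9 replication-dependent genes and 3 variant genes had one in both replicates, beside 17.1% of 19137 coding genes. Here the peaks of the replicates need not overlap, and those of H2BC6, H4C3, H4C11 and H3-3B did not. A peak can also count for neighbouring genes, as for H2AC12 with H2BC12 and H2AC4 with H3C2.

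Genes that supply and handle histones were read beside the histone genes. Of 43 such genes, 15 had a peak in both replicates (34.9%, 22.4% to 49.8%, beside 29.5% of coding genes) and 4 a promoter peak in both (9.30%, 3.68% to 21.6%, beside 9.59%). With a peak within 1000 bp of any GENCODE start of the gene, a count chosen after seeing the data, 13 supply genes qualified (30.2%, beside 17.1%). Overlap between the replicates was not required for this count. All 4 with a peak in the promoter class encode chaperones or their partners and none of their promoter peaks held TGTTTAC. They were SSRP1, a subunit of the FACT complex (ranks 4892 and 3340), CABIN1, of the HIRA complex that deposits H3.3 (ranks 6554 and 8342), NAP1L4, a nucleosome assembly protein (ranks 5777 and 7424), and VPS72, an H2A.Z chaperone (ranks 6554 and 19709). Chaperones and deposition factors had a peak in both replicates in 12 of 24 cases, factors for 3′ end processing in 1 of 10 (SLBP, ranks 2246 and 3968) and transcription factors of the histone genes in 2 of 9. Those were POU2F1, which binds the octamer (ranks 180 and 164), and YY1 (ranks 363 and 1150), both outside the promoter class. HINFP, a factor of H4 promoters, had a promoter peak in replicate 2 only (rank 2013), and no peak was assigned to NPAT in either list.

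**Figure D4:**
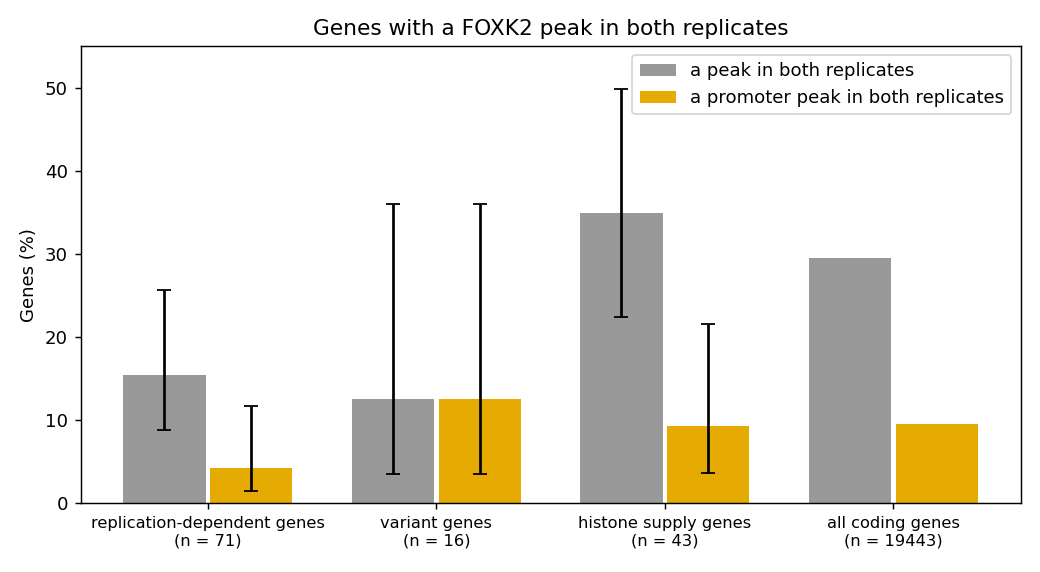
Percentage of genes with any FOXK2 peak (grey) or a promoter peak (yellow) in both replicates, for 71 replication-dependent, 16 variant and 43 histone supply genes with Wilson 95% intervals, beside all 19443 coding genes, drawn without an interval. For any peak, replication-dependent genes stand at 15.5% and all coding genes at 29.5%; the interval of the 16 variant genes reaches from 3.50% to 36.02%.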

How the data were processed

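The starting point was the FOXK2 peak list of each of the 2 OVCAR5 replicates. According to the methods and labels, the authors mapped single-end 50-bp reads to hg38 with Bowtie2 2.2.6 and called and annotated peaks with HOMER 4.10, each replicate separately. The deposited lists give positions, a peak score from the authors' HOMER run, a focus ratio (a fraction) and the nearest TSS with its distance. Library depth is not in the lists, and the lowest score was 3.02 in replicate 1 and 3.12 in replicate 2. Peaks spanned 210 and 256 bp. The rule was applied to the deposited gene names, and 87 coding RefSeq genes matched it. Peaks overlapped from 1 bp. Motifs were searched within 100 bp of peak centres in hg38, and in RefSeq promoter windows (GRCh38.p14), found for 80 of the 87 genes. Shares carry Wilson 95% intervals, which cover counting error only; for a count of 0, the share it allows was taken as 3 counts of the total. Classes were compared with two-sided Fisher's exact tests, adjusted over 8 comparisons.

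Named by rule were variant genes with a peak in both replicates, replication-dependent genes with a promoter peak in both, and supply genes with a promoter peak in both. The rule also named up to 6 genes of each class with the highest mean percentile over both lists. Only 2 variant genes had a peak in both lists and so a mean. The other genes are named to account for every member. The supply list holds 43 genes for transcription of histone genes, 3′ end processing, and chaperones. Members and lists were chosen with earlier results of these data known. Alternatives were peaks at or above the median score, equally long lists, 50% overlap, limits of 10000 and 100000 bp to the TSS, promoters within 1000 bp, named chromosomes, motif windows of 50 bp or the whole peak, leaving out each replicate and, chosen after seeing the data, starts from GENCODE release 44. The overlap, motif and adjustment steps were tested on simulated data. Input libraries and RNA-seq were not analysed here. The analysis ran in Python 3.11.15 (pandas 2.3.3, numpy 2.4.6, matplotlib 3.10.9, scipy 1.17.1).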

Additional observations from a re-analysis of the deposited data

How the results depend on the processing

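With 2 replicates of a single condition and few variant gene peaks, small differences could not be resolved. In replicate 1 large ones could not be resolved either. For promoter share and overlap there, the smallest p that Fisher's exact test allows was 0.154. No paired analysis was possible because the files used here hold peaks of the FOXK2 samples alone, with nothing per input sample to pair them with. Of 113 alternative values of 18 results, 84 stayed within their limits, 23 moved and 6 reversed or lost their direction. The replicate 1 overlap difference with peaks at or above the median score is counted among the 6, since it became 0 and did not change sign. A tested difference was held to its direction and its side of the threshold only, a count to 1.5 times, a share to its Wilson interval and a median to the spread between replicates; the cause was not tested beyond the smaller number of peaks that some alternatives leave.

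With peaks at or above the median score, 100% of replicate 1 and 50% of replicate 2 histone gene peaks overlapped, the difference in overlap between the classes in replicate 1 was 0 percentage points, and the genes peaked in both replicates were 5 (replication-dependent) and 7 (supply), with promoter peaks 1 and 2; the class difference by gene was -5.46 percentage points. With equally long lists, 63.6% of replicate 2 peaks overlapped, their median percentile was 68.6, the genes numbered 4 and 9, replication-dependent genes with promoter peaks 1, and the class difference was -6.87 percentage points. Within 10000 bp of the TSS, 7 replication-dependent genes had a peak in both, the class difference was -2.64 percentage points by gene and -7.02 percentage points for overlap in replicate 2. Shares of all peaks and of all coding genes are not given for these settings. The overlap shares and gene counts here therefore cannot be set beside a general rate.

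Promoters within 1000 bp of the listed TSS gave 5 replication-dependent and 9 supply genes, and no share of coding genes is given for this limit. Starts from GENCODE, chosen after seeing the data, gave 9 (12.7%) and 13 (30.2%), beside 17.1% of coding genes, without requiring that the peaks of the replicates overlap. When each replicate was left out, genes with a peak numbered from 12 to 24 (replication-dependent), 2 to 10 (variant) and 17 to 29 (supply). The lower counts are of replicate 1 alone, where 32.3% of coding genes had a peak, and the higher of replicate 2 alone, with 53.3%. Genes with a promoter peak numbered from 5 to 8, 2 to 4 and 6 to 17, for which no share of coding genes is given. The class difference by gene with any peak ran from -28.7 to 4.401 percentage points. Differences between the classes that kept direction and call but changed by over 1.5 times were those in promoter share of replicate 2 peaks, from -5.59 to between -63.3 and -24.6 percentage points in 3 alternatives, in overlap in replicate 2, from 12.6 to 26.7 and 43.3, in TGTTTAC in replicate 2 over the whole peak, to 14.0, and in genes with a promoter peak, from -8.27 to -13.7 and -5.46.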

Other observations

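H2BFS, a chromosome 21 histone H2B gene whose symbol falls outside the rule, was named in both lists and was looked up after the other values were seen. Its peak lay in the last intron of a longer gene, at a distance to the TSS of 20854 bp in replicate 1 (score 8.3, rank 2960, percentile 75.6) and 21044 bp in replicate 2 (score 13.5, rank 4149, percentile 84.6), and the peaks overlapped. Of the 10 replicate 1 histone gene peaks whose label names a transcript, 5 named that of another gene than the one assigned, and 6 of 24 did in replicate 2. By GENCODE, the nearest start was that of the assigned gene for 13 of 17 and 22 of 37 peaks, and that of any histone gene or histone pseudogene for 15 of 17 and 26 of 37. The centre lay within a coding histone gene for 5 and 11 peaks. Shares over all peaks of the lists are not given for these label and start counts. They therefore cannot be set beside a general rate.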
